A study of Mus musculus with 8 samples.

Results

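Hyaluronan is a long sugar polymer of the extracellular matrix, and 8 genes that make, cut or bind it were followed in the lungs of newborn mice exposed to high oxygen. They are the hyaluronan synthases Has1, Has2 and Has3, the hyaluronidases Hyal1 and Hyal2, the receptor Cd44, the proteoglycan versican (Vcan) and Tnfaip6, which encodes TSG-6. They were taken by gene symbol from an array annotation that names 20863 genes, and all 8 were found, on 15 features (spots or probes). Lung samples of 4 pups labelled Fgf10+/- were set against 4 labelled wild-type, on 1 array each. Both groups were of the C57Bl/6J background and both spent postnatal days 0 to 3 in 85% oxygen, and lungs from room air were not analysed here. The titles call the heterozygous group TG, and the sources used here give neither what TG stands for nor how the Fgf10 allele was changed. The series' design calls the samples independent, but the sources used here do not tie the samples to litters, so a p-value reflects only how far these samples spread, which may be technical in part.

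Hyaluronan is spun out at the cell surface by the HAS enzymes, which join the sugar nucleotides UDP-glucuronic acid and UDP-N-acetylglucosamine. HYAL2 at the cell surface and HYAL1 in lysosomes then cut the polymer, first into large and then into small pieces. CD44 is its main receptor, versican binds along the chain and builds large aggregates with it, and TSG-6 transfers protein chains onto it during inflammation. In the lung, hyaluronan holds water in the interstitium, and large and small pieces have different effects on inflammation in injured tissue.

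Fgf10 did not mark the groups. Its brightest feature read 7.81, 7.99, 8.10 and 8.28 in arrays 1 to 4 labelled Fgf10+/-, against 7.53, 8.16, 7.91 and 7.64 in wild-type arrays 1 to 4 (log2 intensity, two-sided exact permutation p = 0.2), and all 10 of its features had the higher mean in the arrays labelled Fgf10+/-. These 10 features were read on the same 8 samples, so their shared sign is not separate evidence. With Fgf10 not marking the groups, directions below rest on the labels. Defining lung markers were bright on all 8 arrays, with the type 2 cell gene Sftpc at 15.98 to 15.99, the top of the scale, in both groups. Wild-type array 1 had the highest inflammatory cytokine score, 1.78, and array 2 labelled Fgf10+/- the next, 0.93, against -0.73 to -0.10 in the other 6 arrays. A score here is the mean of each gene's log2 value minus its own mean over the 8 arrays. Wild-type array 4 had the highest heart muscle score, 1.42, and the highest mesothelial score, 1.57. In the heart muscle list Nppa read 11.25 on that array, against 4.55 to 6.25 on the others. Myh6 and Tnnt2 were also highest there, and Myl7 and Actc1 were not. Scores of the fibroblast, macrophage, mesothelial, neutrophil, lymphocyte, lymphatic, blood vessel, type 1 cell, heart muscle, red cell and cytokine lists overlapped between the groups, and the only gene called among them was the lymphatic gene Mmrn1, which fell.

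None of the hyaluronan genes passed the test across all genes, and Hyal1 came nearest, at 0.524 times the wild-type level without passing. Of the 8 genes, 7 passed the filter on dim features and were tested with limma, and 0 of 7 passed an adjusted p (Benjamini-Hochberg) under 0.05, against 0.795% of 17234 tested genes, 0.569% lower and 0.226% higher. At an adjusted p under 0.1 only Hyal1 of the 7 was called, against 1.61% of tested genes. One gene, Hyal1, had an unadjusted p below 0.05, against 11.2% of tested genes. The groups did not overlap for Hyal1 and Tnfaip6, both lower in the arrays labelled Fgf10+/-, while 3.51% of tested genes lay apart in this direction and 6.64% in either. The median log2 difference of the 7 genes was -0.05, against 0.01 over all tested genes, with 3 genes higher and 4 lower. The precision was unequal. The standard error of the difference was 0.08 for Hyal2 and 0.10 for Cd44, but 0.51 for Has1.

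**Figure D1:**
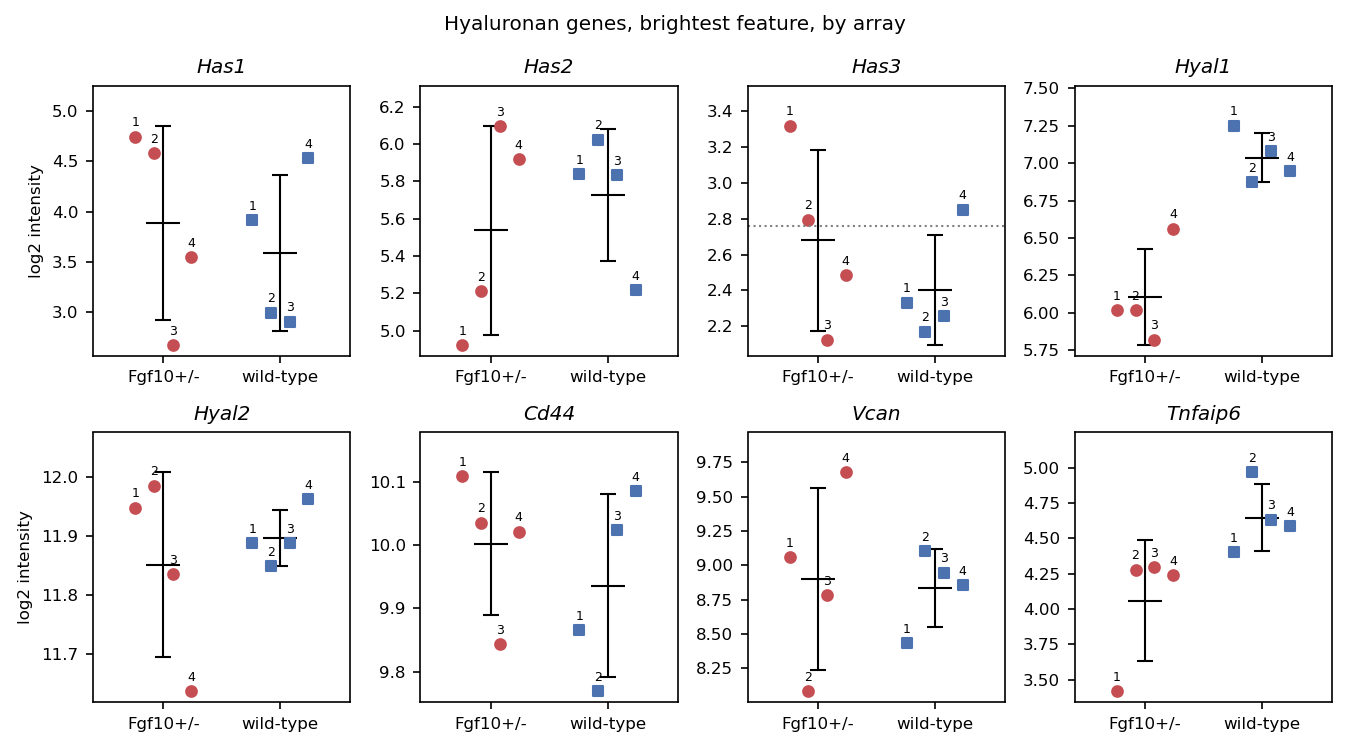
Log2 intensity (vertical axes, each with its own range) of the brightest feature of each hyaluronan gene in 4 arrays labelled Fgf10+/- (red circles) and 4 wild-type arrays (blue squares). Numbers are array numbers, black bars are mean ± SD (n = 4 each), and the dotted line in the Has3 panel is the filter level of 2.76. The groups lie apart for Hyal1 and Tnfaip6 and overlap for the other 6 genes.

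The 3 synthase genes, on chromosomes 17, 15 and 8, overlapped between the groups, and neither of the 2 tested was called. Has2, the synthase needed for heart and vessel formation in the mouse embryo, read 4.92, 5.21, 6.10 and 5.92 in arrays 1 to 4 labelled Fgf10+/-, against 5.84, 6.02, 5.83 and 5.22 in wild-type arrays 1 to 4. The groups overlapped, with 2 low arrays among those labelled Fgf10+/- and 1 among the wild-type ones. The log2 difference was -0.19 (95% CI -0.83 to 0.45, limma adjusted p = 0.872), and it became 0.01 without array 1 labelled Fgf10+/-. Has1 read 4.75, 4.58, 2.67 and 3.55 in arrays labelled Fgf10+/-, against 3.91, 2.99, 2.90 and 4.53 in wild-type arrays. Its values spread over more than 2 log2 units among the arrays labelled Fgf10+/-, and the difference was 0.30 (95% CI -0.79 to 1.39, limma adjusted p = 0.881). Leaving out array 3 labelled Fgf10+/- gave 0.71 and leaving out array 1 of that group gave 0.01, neither of them called.

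Has3 lay below the filter in its mean over the 8 arrays and was not tested. It read 3.32, 2.79, 2.12 and 2.48 in arrays labelled Fgf10+/-, against 2.33, 2.17, 2.25 and 2.85 in wild-type arrays, around the filter level of 2.76. Its groups overlapped, with a mean difference of 0.28 (two-sided exact permutation p = 0.4), and with no detection call in the table its position relative to background is unknown. The synthases set the same 3 arrays apart, Has2 in the opposite direction to the others, and these arrays did not follow genotype. Arrays 1 and 2 labelled Fgf10+/- and wild-type array 4 held the 3 highest values of Has1 and of Has3 and the 3 lowest values of Has2. This is a description of 8 arrays, noticed after the values were seen.

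The hyaluronidases Hyal1 and Hyal2 are neighbours on chromosome 9. The bases upstream of their starts are shown because Hyal1 came nearest to the threshold while its neighbour Hyal2 lay near 0, and those of Tnfaip6 because its groups also lay apart. RefSeq promoters were held for 6 of the 8 genes. Each line gives the 250 bases before the annotated start in GRCm38.p6, on the + strand: chr9:107576700-107576949 for Hyal1, chr9:107568913-107569162 for Hyal2 and chr2:52037863-52038112 for Tnfaip6. Capitals mark matches, on either strand, to 5 motifs. The letters searched were GGGCGG for the GC box, CCAAT for the CCAAT box, TGANTCA for the AP-1 site, TATAAA for the TATA box and CACGTG for the E-box.
Hyal1: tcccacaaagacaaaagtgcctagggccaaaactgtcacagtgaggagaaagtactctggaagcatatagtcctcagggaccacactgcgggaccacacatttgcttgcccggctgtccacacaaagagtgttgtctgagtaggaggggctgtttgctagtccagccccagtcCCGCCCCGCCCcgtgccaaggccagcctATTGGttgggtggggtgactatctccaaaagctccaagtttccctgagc
Hyal2: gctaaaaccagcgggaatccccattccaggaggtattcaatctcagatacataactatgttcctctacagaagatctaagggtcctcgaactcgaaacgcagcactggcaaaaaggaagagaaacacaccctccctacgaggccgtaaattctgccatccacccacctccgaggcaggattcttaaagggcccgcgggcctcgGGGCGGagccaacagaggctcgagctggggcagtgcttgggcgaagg
Tnfaip6: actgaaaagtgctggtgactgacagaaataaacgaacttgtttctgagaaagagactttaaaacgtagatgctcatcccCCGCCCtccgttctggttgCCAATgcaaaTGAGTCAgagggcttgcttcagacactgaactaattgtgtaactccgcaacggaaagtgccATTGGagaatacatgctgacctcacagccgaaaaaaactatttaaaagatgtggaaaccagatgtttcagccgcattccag
The Hyal1 window held 2 overlapping GC box matches and 1 CCAAT box, and the Hyal2 window held 1 GC box. The Tnfaip6 window held 1 GC box, 2 CCAAT boxes and 1 AP-1 match. Among 32851 promoter windows of this length, 32.7% held a GC box, 33.8% a CCAAT box, 6.75% an AP-1 match, 12.4% a TATA box and 6.02% an E-box, and the last 2 motifs were in none of the 3 windows. The matches describe letters and show no binding.

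Hyal1, the lysosomal hyaluronidase, read 6.02, 6.02, 5.82 and 6.56 in arrays 1 to 4 labelled Fgf10+/-, against 7.25, 6.87, 7.08 and 6.95 in wild-type arrays 1 to 4 (log2 intensity). The highest array labelled Fgf10+/- lay below the lowest wild-type array. The mean of the Fgf10+/- group was 6.11 ± 0.32, against 7.04 ± 0.17 for wild-type (SD, n = 4 each). The log2 difference was -0.93 (SE 0.20, 95% CI -1.37 to -0.50), a ratio of 0.524 (95% CI 0.388 to 0.709). Its limma adjusted p was 0.0522, just short of the threshold. Its exact permutation p was 0.0286, the smallest that 4 against 4 arrays allow. Every gene whose groups lie apart has this exact p, Tnfaip6 included, so it adds nothing to the lack of overlap, seen in 6.64% of tested genes. Of the 8 fits with 1 array left out, 1 called Hyal1, that without array 4 labelled Fgf10+/- (difference -1.08, limma adjusted p = 0.0425). The other 7 gave limma adjusted p from 0.101 to 0.153, with the highest without array 3 labelled Fgf10+/-. In bulk lung, fewer cells that hold a transcript and less of it per cell cannot be told apart.

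Hyal2, the cell-surface hyaluronidase, read 11.95, 11.99, 11.84 and 11.64 in arrays labelled Fgf10+/-, against 11.89, 11.85, 11.89 and 11.96 in wild-type arrays. The groups overlapped, and array 4 labelled Fgf10+/- was the lowest. The log2 difference was -0.05 (95% CI -0.23 to 0.14, limma adjusted p = 0.893). The difference between the neighbours was compared within each array, as the Hyal1 value minus the Hyal2 value. This was -5.93, -5.97, -6.01 and -5.07 in arrays labelled Fgf10+/-, against -4.64, -4.98, -4.81 and -5.02 in wild-type arrays. The groups lay apart narrowly, with the 2 arrays numbered 4 nearest to each other, and the mean difference was -0.89 (two-sided exact permutation p = 0.0286 before adjustment for 3 such comparisons). Because Hyal2 differed by only -0.05, this comparison largely repeats the Hyal1 values and is not a separate result.

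No gene around the pair was called. In the RefSeq order, 12 protein-coding genes from Cyb561d2 to Sema3b surround and include the pair, and 11 of them were tested. The other 10 tested genes had log2 differences between -0.34 and 0.30, and 0 of the 11 were called. The lowest of them was Naa80, which encodes the enzyme that acetylates the end of actin and whose annotated span overlaps that of Hyal1. Naa80 read 7.40, 7.13, 7.48 and 7.35 in arrays labelled Fgf10+/-, against 7.73, 7.77, 7.52 and 7.70 in wild-type arrays. Its groups did not overlap either, with a difference of -0.34 (SE 0.14, limma adjusted p = 0.385). Hyal3, which also overlaps Hyal1 in the annotation, was dim and varied widely, with a difference of -0.17 (SE 0.47, limma adjusted p = 0.928). Probe sequences were not used here, so whether a feature of 1 of the 3 overlapping genes can bind transcripts of another is unknown. The within-array difference of Hyal1 and Naa80 was -0.59 between the groups (two-sided exact permutation p = 0.0571), and that of Hyal1 and Hyal3 was -0.76 (p = 0.343 by the same exact test). These flanking genes were chosen after the values of Hyal1 were seen.

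**Figure D2:**
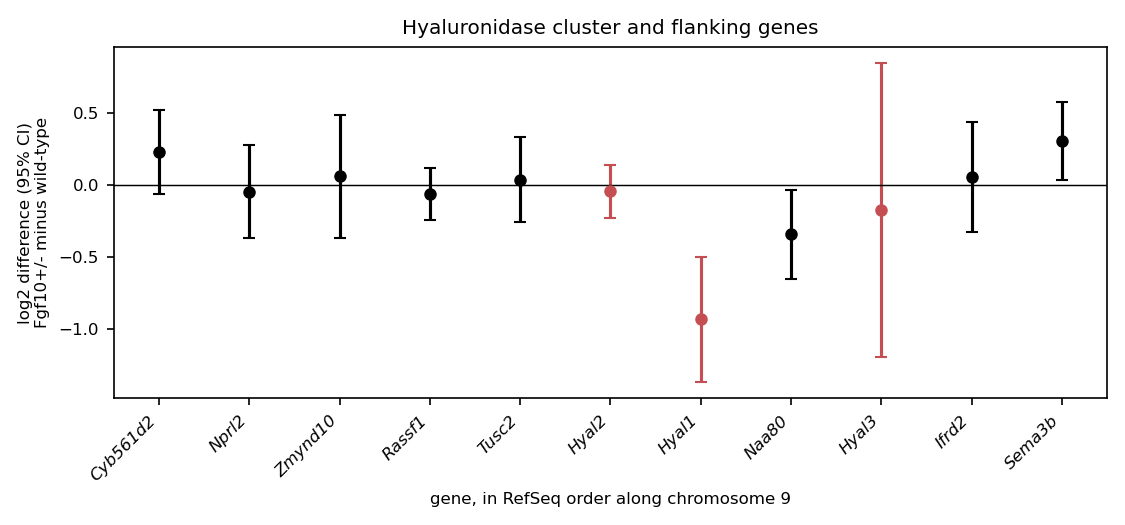
Log2 difference, arrays labelled Fgf10+/- minus wild-type arrays (vertical axis, points with 95% CI from limma, n = 4 each), for 11 tested genes in RefSeq order along chromosome 9 (horizontal axis, not to scale). Hyaluronidase genes are red, and Hyal1 at -0.93 stands below Hyal2 at -0.05 on its left and Naa80 at -0.34 on its right.

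Of the marker lists for other cells and states, 3 had scores that did not overlap between the groups, as Hyal1 did. Type 2 cell scores were 0.14 to 0.23 in arrays labelled Fgf10+/-, against -0.27 to -0.08 in wild-type arrays, with 3 of 5 genes called higher. Cell division scores were -1.28 to -0.44 in arrays labelled Fgf10+/-, against 0.08 to 1.06 in wild-type arrays, with 6 of 6 tested genes called lower. Smooth muscle scores were -0.21 to -0.07 in arrays labelled Fgf10+/-, against 0.01 to 0.41 in wild-type arrays, with 0 of 5 genes called. The summed log2 values of a list restate its score on another scale, so their separation is not a further result. For the type 2 cell list the sum was 69.0 to 69.4 for Fgf10+/-, against 66.9 to 67.9 for wild-type. The sum was 45.1 to 50.1 for Fgf10+/-, against 53.2 to 59.1 for wild-type, in the cell division list. It was 56.6 to 57.3 for Fgf10+/-, against 57.7 to 59.7 for wild-type, in the smooth muscle list. Macrophage scores overlapped, at -0.31 to 0.06 in arrays labelled Fgf10+/-, against -0.09 to 0.31 in wild-type arrays, with 0 of 11 genes called. The part of these cells and states in the Hyal1 difference was not tested.

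By the root mean square distance between centred profiles over the 8 arrays, the tested genes most like Hyal1 were Gprin2 at 0.16, C1qtnf6, a secreted protein of the C1q and TNF-related family, at 0.18, and 2610318N02Rik at 0.20 log2 units. Their own differences were -0.70, -0.80 and -0.90, and none of the 3 was called. Likeness was sought by a rule over 17234 genes and 8 arrays, and it says nothing of function.

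Cd44, the receptor through which cells grip and take up hyaluronan, was not called in its brightest feature. It read 10.11, 10.04, 9.84 and 10.02 in arrays labelled Fgf10+/-, against 9.87, 9.77, 10.02 and 10.09 in wild-type arrays. The groups overlapped, with a difference of 0.07 (95% CI -0.15 to 0.28, limma adjusted p = 0.866). As a ratio the interval ran from 0.901 to 1.22 times the wild-type level. The other 3 Cd44 features had the opposite sign, at -0.30, -0.18 and -0.09, and the mean over its features gave -0.12, so no direction can be given for Cd44. The third feature by brightness read 6.17, 5.88, 5.74 and 6.22 in arrays labelled Fgf10+/-, against 6.40, 6.34, 5.55 and 6.43 in wild-type arrays.

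Vcan, a large proteoglycan of provisional and developing matrix, lies on chromosome 13, as Fgf10 does. Its brightest feature read 9.06, 8.08, 8.78 and 9.68 in arrays labelled Fgf10+/-, against 8.43, 9.10, 8.95 and 8.85 in wild-type arrays. The highest and the lowest of the 8 values both came from the Fgf10+/- group. Its SD was 0.66, against 0.29 for wild-type (n = 4 each). The difference was 0.07 (95% CI -0.49 to 0.62, limma adjusted p = 0.95), and it ranged from -0.19 without array 4 to 0.34 without array 2, both labelled Fgf10+/-. The other 2 Vcan features, annotated to a different transcript accession, gave -0.30 and -0.19. The second read 7.86, 6.61, 6.92 and 8.08 in arrays labelled Fgf10+/-, against 6.94, 8.13, 7.53 and 8.08 in wild-type arrays. Both bright features thus had array 2 lowest and array 4 highest among the arrays labelled Fgf10+/-, while wild-type array 1 was the lowest of its group in both. No direction can be given for Vcan, and as a ratio its interval ran from 0.711 to 1.54 times the wild-type level.

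**Figure D3:**
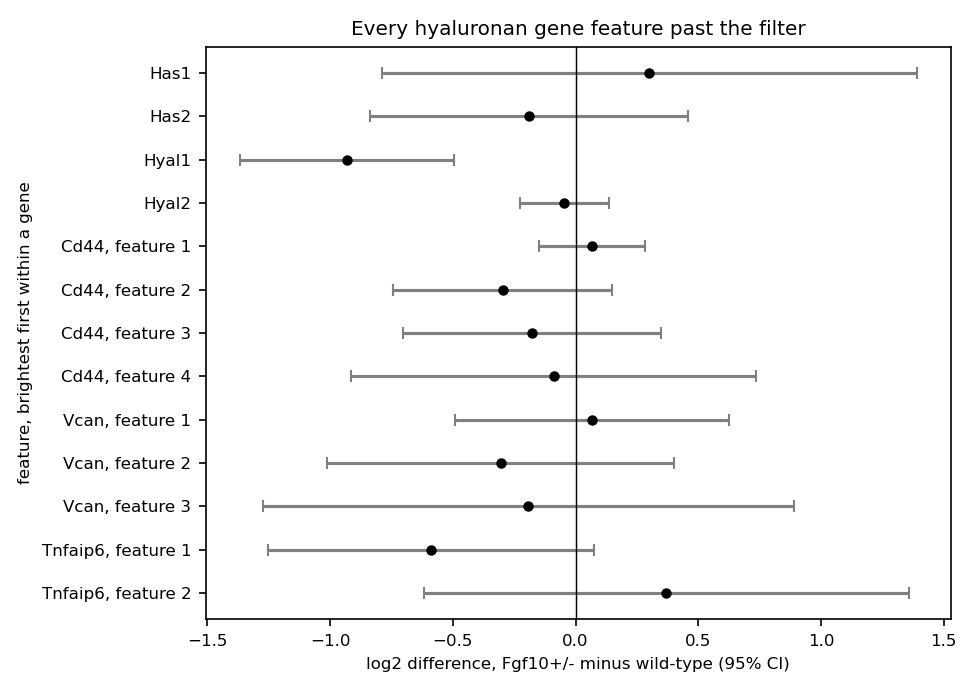
Log2 difference, arrays labelled Fgf10+/- minus wild-type arrays (horizontal axis, points with 95% CI from limma fitted over all named features, n = 4 each), for the 13 features of hyaluronan genes past the filter (vertical axis). The interval of Hyal1 alone leaves out 0, and the features of Cd44, Vcan and Tnfaip6 fall on both sides of 0.

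Tnfaip6, the inflammation-induced gene of TSG-6, lay apart between the groups in its brightest feature but not in the others. That feature read 3.42, 4.28, 4.30 and 4.24 in arrays labelled Fgf10+/-, against 4.40, 4.97, 4.63 and 4.58 in wild-type arrays. The gap between the groups was narrow, from 4.30 in the highest array labelled Fgf10+/- to 4.40 in the lowest wild-type array. The difference was -0.59 (SE 0.31, 95% CI -1.25 to 0.07, limma adjusted p = 0.517), and it was -0.37 without array 1 labelled Fgf10+/-. The second feature had the opposite sign, at 0.37 (SE 0.46), and read 3.60, 4.64, 2.73 and 3.03 in arrays labelled Fgf10+/-, against 3.74, 3.04, 3.36 and 2.37 in wild-type arrays. The third lay below the filter, at -0.08. No direction can be given for Tnfaip6. With each feature fitted on its own, 0 of the 13 features of hyaluronan genes past the filter were called, against 0.726% of 25758 named features, and Hyal1 had an adjusted p of 0.0587 in that limma fit. The genes most like the brightest feature of Tnfaip6 were Tiam2, an activator of the GTPase RAC, at a distance of 0.17, Spag4 at 0.18 and Aaas, a nuclear pore protein, at 0.18 log2 units, none of them called.

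Of the 15 features, 1 each of Hyal1, Hyal2, Cd44, Vcan and Tnfaip6 was highest on 1 of the 2 arrays with the highest inflammatory cytokine scores. The other features of these genes, and those of Has1, Has2 and Has3, were highest on other arrays. The share of all array features that were highest on these 2 arrays was not computed, so the count is a description only. Hyal1 was highest, at 7.25, on wild-type array 1, and its difference was -0.86 without that array. Hyal2 was highest, at 11.99, on array 2 labelled Fgf10+/-, close to the 11.96 of wild-type array 4. The features of Cd44, Vcan and Tnfaip6 that follow were picked after their values were seen. Wild-type array 1, with a score of 1.78, read 9.38 on the second Cd44 feature. The arrays labelled Fgf10+/- read 8.20 to 8.54, and wild-type arrays 2 to 4 read 8.22 to 8.55. Array 2 labelled Fgf10+/-, with the next highest score, was the lowest of the 8 arrays on that feature, at 8.20. The difference of that feature was -0.30 with all arrays and -0.05 without wild-type array 1. The third Vcan feature read 3.16 on array 2 labelled Fgf10+/- and 5.03 on wild-type array 1. Its difference was -0.19 with wild-type array 1 and 0.26 without it. Tlr2, a receptor of innate immunity that also senses hyaluronan pieces, read 9.80 on wild-type array 1. For Tlr2 the arrays labelled Fgf10+/- read 7.88 to 8.51, and wild-type arrays 2 to 4 read 7.80 to 8.36. Tlr2 was chosen after its values were seen. The second Tnfaip6 feature was highest, at 4.64, in array 2 labelled Fgf10+/-, which had a score of 0.93. Its difference was 0.37 with that array and -0.01 without it. That feature read 3.74 on wild-type array 1, and the third Tnfaip6 feature was lowest there, at 1.73. The brightest features of Cd44, Vcan and Tnfaip6 were not highest on either array. The part of inflammation in these values was not tested.

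**Figure D4:**
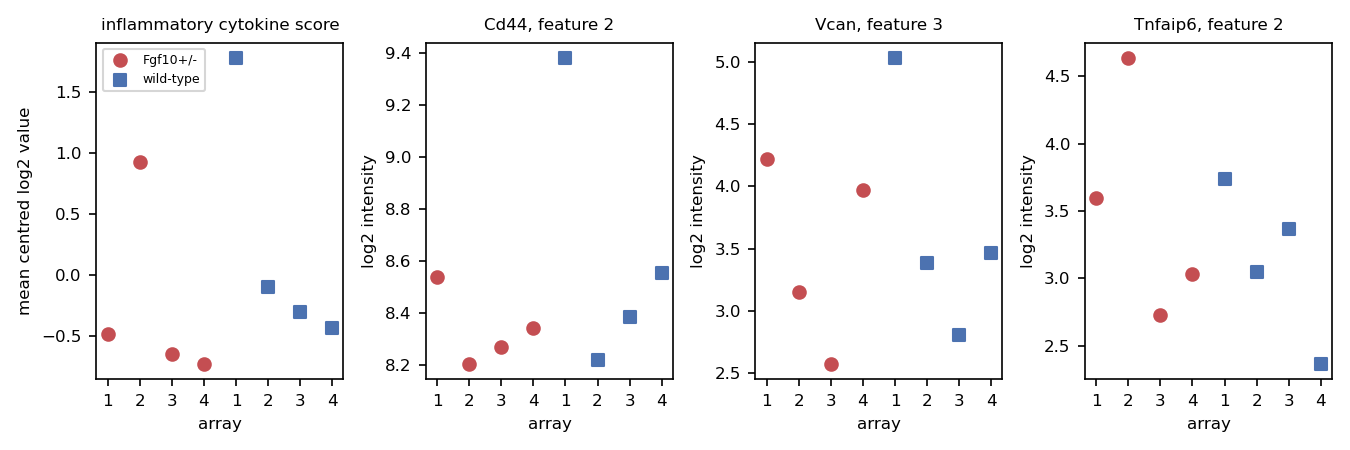
Inflammatory cytokine score (left, mean of 7 tested genes centred on their means) and log2 intensity of the second Cd44, the third Vcan and the second Tnfaip6 feature, by array, for arrays labelled Fgf10+/- (red circles) and wild-type arrays (blue squares). Wild-type array 1 is highest for the score at 1.78, for Cd44 at 9.38 and for Vcan at 5.03. Array 2 labelled Fgf10+/-, with the next highest score, is highest for Tnfaip6 at 4.64 but lowest for Cd44 at 8.20. The 3 features were picked after their values were seen.

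Beyond these 8, a list of 47 genes of hyaluronan precursor supply, breakdown, binding and remodelling held 40 tested genes, 6 below the filter and 1 without a feature. Among the 40, Ezr rose and Adamts4 fell, and 38 did not pass, against a background of 0.795% called. Their median log2 difference was -0.03, against 0.01 over all tested genes. Groups lay apart for 5 higher and 4 lower genes, against 3.13% higher and 3.51% lower over all tested genes. These counts describe the lists only.

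Adamts4, a secreted protease that cuts versican and aggrecan, was the clearest of the lower genes. It read 7.39, 7.28, 7.21 and 7.56 in arrays labelled Fgf10+/-, against 8.09, 8.19, 8.17 and 8.56 in wild-type arrays, with no overlap. It fell by 0.90 on the log2 scale (SE 0.15, limma adjusted p = 0.0146), and its other feature had the same sign, at -1.21. The call was lost without array 3 labelled Fgf10+/- (adjusted p = 0.0514) and without wild-type array 2 (adjusted p = 0.0618, by limma). It was also lost when that other feature, the more variable one, stood for the gene (limma adjusted p = 0.161). Without the variance trend the limma adjusted p was 0.13. The other 4 tested versican-cleaving proteases did not pass, with Adamts1 at 0.12, Adamts5 at 0.19, Adamts9 at -0.19 and Adamts15 at -0.31.

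Among the proteins that tie CD44 to the actin skeleton, ezrin (Ezr) rose by 0.42 (SE 0.09, limma adjusted p = 0.0461), while moesin (Msn) at -0.09 and radixin (Rdx) at -0.01 did not pass. Ezr read 11.22, 11.32, 11.06 and 11.06 in arrays labelled Fgf10+/-, against 10.74, 10.62, 10.81 and 10.83 in wild-type arrays. The groups did not overlap, but the call was lost in all 8 fits with 1 array left out, with limma adjusted p between 0.0635 and 0.155. Ezrin is also an apical protein of epithelial cells, and the type 2 cell list, 3 of whose 5 genes were called higher, moved with it. Their part in the Ezr change was not tested.

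In precursor supply, 0 of 7 genes were called. Gfpt2, 1 of 2 genes for the enzyme that opens the hexosamine pathway to UDP-N-acetylglucosamine, had the smallest p of the list. It read 4.95, 5.07, 5.34 and 4.96 in arrays labelled Fgf10+/-, against 6.01, 6.08, 5.38 and 6.82 in wild-type arrays, a difference of -0.99 (SE 0.29, limma adjusted p = 0.165). Its paralog Gfpt1 had the opposite sign, at 0.28 (SE 0.09, limma adjusted p = 0.233), and so did Gnpnat1, a later enzyme of the pathway, at 0.28 (SE 0.12). All 3 had groups that did not overlap, as did Uap1 of the same list at 0.07 (SE 0.08), while 6.64% of all tested genes lay apart. Gfpt1, Gnpnat1 and Uap1 were chosen after their values were seen. Ugdh, which makes UDP-glucuronic acid, had a value of -0.17 (SE 0.10).

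Of the other breakdown genes 0 of 5 tested were called, and Cemip2, a membrane protein described as a cell-surface hyaluronidase, had the smallest p, at -0.30 (SE 0.10, limma adjusted p = 0.206). Of the other receptors 0 of 7 were called. Hmmr, a hyaluronan-binding protein that also acts at the mitotic spindle, differed by -0.62 (SE 0.19, limma adjusted p = 0.181), beside a cell division list whose 6 tested genes were all called lower. Stab1, a scavenger receptor of macrophages and vessels, had -0.37 (SE 0.11) with groups apart, and Lyve1, the lymphatic hyaluronan receptor, had -0.37 (SE 0.17) with overlap. Stab1 and Lyve1 were picked with their values in view. The median of the 7 other receptors was -0.34, which is the value of Tlr2, and 0.09 without wild-type array 1, where Tlr2 was highest. Of the 7, 3 were higher and 4 lower. Scores of this list did not overlap between the groups. They were -0.12 to -0.05 in arrays labelled Fgf10+/-, against 0.003 to 0.18 in wild-type arrays, with wild-type array 4 highest. Scores of every other pathway list overlapped, and the separation was picked out with the scores in view. Those of the tested members overlapped too, at -0.24 to 0.09 in arrays labelled Fgf10+/-, against 0.04 to 0.17 in wild-type arrays. The part of dividing, macrophage or lymphatic cells in these values was not tested.

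Among other lecticans, and link proteins that pin versican to hyaluronan, 0 of 4 tested genes were called and 3 lay below the filter. Hapln1 had the smallest p, at 0.27 (SE 0.24, limma adjusted p = 0.736). Among heavy chains and other cross-linkers 0 of 9 were called. Itih5 read 6.56, 6.79, 6.55 and 6.36 in arrays labelled Fgf10+/-, against 7.14, 7.45, 7.04 and 7.46 in wild-type arrays, a difference of -0.71 (SE 0.18, limma adjusted p = 0.0953) with no overlap. Itih1, whose protein TSG-6 transfers onto hyaluronan, had the opposite sign, at 1.46 (SE 0.42, limma adjusted p = 0.157). It read 4.50, 5.24, 4.08 and 3.74 in arrays labelled Fgf10+/-, against 3.56, 2.44, 3.38 and 2.31 in wild-type arrays, with 2 wild-type values below the filter level of 2.76. Itih1 was chosen after its values were seen.

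**Figure D5:**
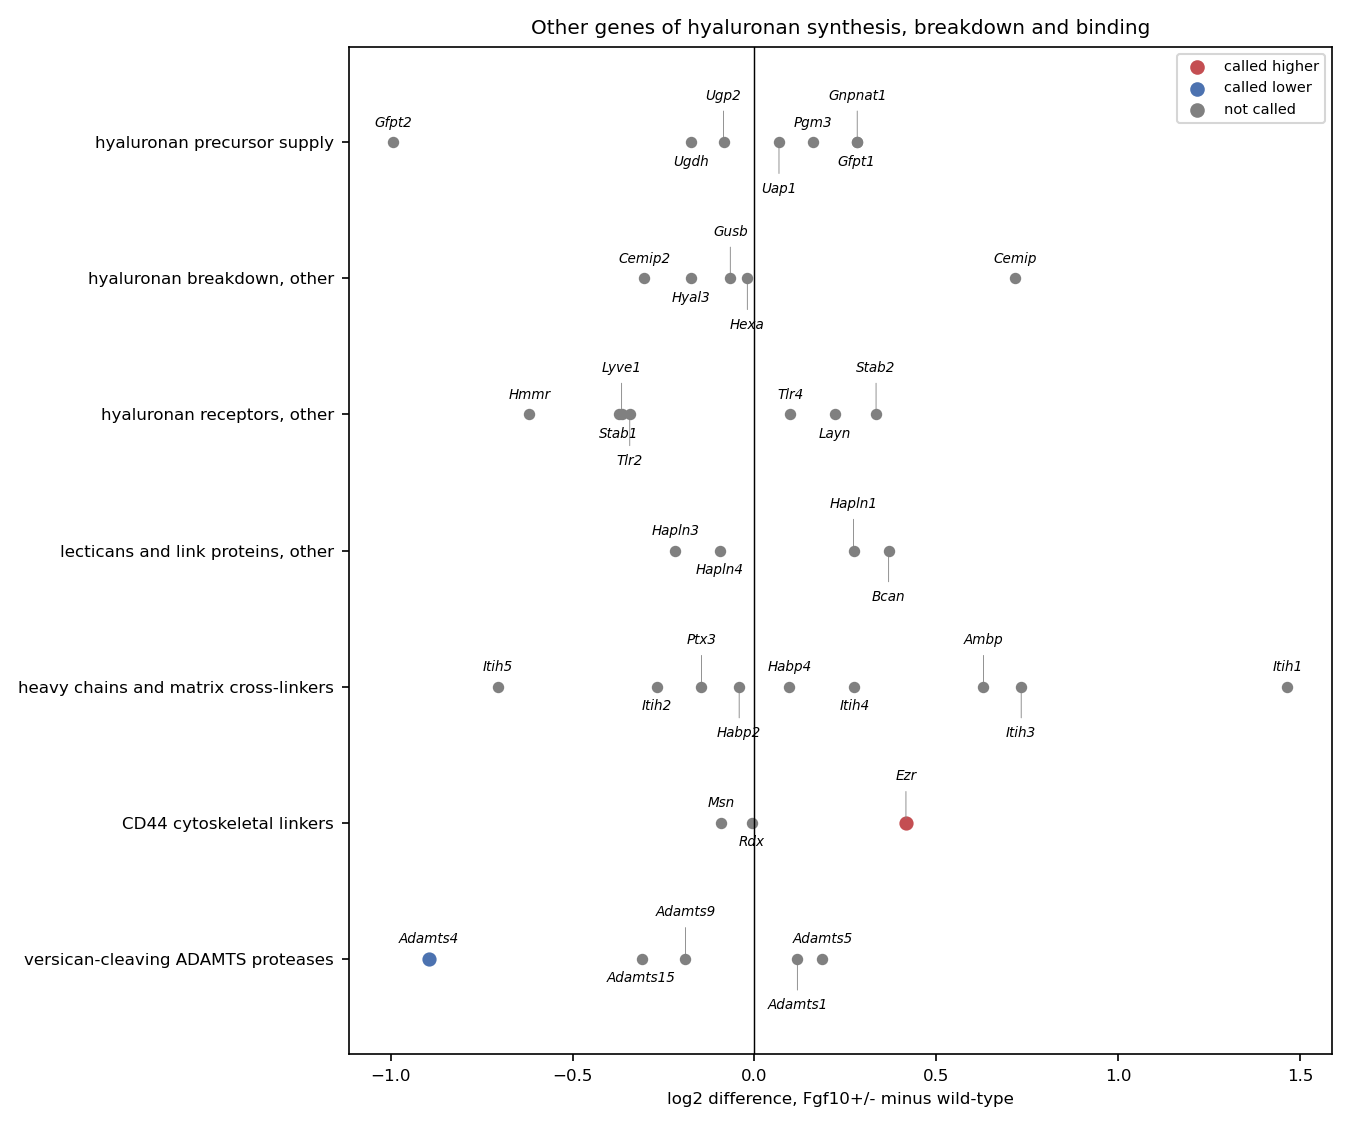
Log2 difference, arrays labelled Fgf10+/- minus wild-type arrays (horizontal axis, n = 4 each), of the 40 tested genes in 7 lists of hyaluronan precursor supply, breakdown, binding and remodelling (vertical axis). Ezr at 0.42 (red) was called higher and Adamts4 at -0.90 (blue) lower by limma, and the 38 grey genes were not called.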

How the data were processed

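Agilent 1-colour (Cy3) arrays of lung RNA were used, 4 labelled Fgf10+/- and 4 wild-type. The authors deposited log2 intensities of 62976 features per array. The submitters' processing notes name limma, without a version or step. The deposited log2 columns share their mean, SD and quantiles, as quantile-normalized values do, and were used as they are. How background was corrected is not stated in the labels or the table. Arrays have no depth, and their number limits the precision.

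The platform annotation gave 31465 features 1 symbol each, none several, and left 31511 unnamed here. By accession 29050 matched RefSeq (GRCm38.p6), which updated 2933 symbols. Features with any of the 301 missing values were left out, as were those with a mean below the 30th percentile (2.76), in the tests. The feature with the highest mean stood for its gene. The difference, Fgf10+/- minus wild-type, was fitted for 17234 genes by limma 3.58.1 under R 4.3.3 (lmFit and trended eBayes, two-sided), with Benjamini-Hochberg adjustment over all genes. Single genes were also compared by exact permutation. The fit was tested on simulated data.

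The members, lists and tests were chosen with earlier results of these data known. Named are the 8 members, called genes of the lists and otherwise each list's gene with the smallest p, and the 3 genes most like a member whose groups lay apart. Alternatives were other filters, feature rules, normalizations, array weights, no variance trend, a replicate block, an adjusted p below 0.1 and left-out arrays.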

Additional observations from a re-analysis of the deposited data

Results flagged for a closer look

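In 34 groups of 4 arrays, made of every feature of the 8 genes and the brightest features of Ezr and Adamts4, 2 held an array far from the other 3 by Dixon's test at 95%, where chance flags about 1 in 20 groups. The brightest Tnfaip6 feature read 3.42 in array 1 labelled Fgf10+/-, against 4.24 to 4.30 in the other 3 of that group. The third Cd44 feature read 5.55 in wild-type array 3, against 6.34 to 6.43 in wild-type arrays 1, 2 and 4.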

How the results depend on the processing

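The count of called hyaluronan genes was 0 of 7, and it was 1 (Hyal1) with features under the 50th percentile removed, 1 at an adjusted p below 0.1, and 0 to 1 with 1 array left out. It was 0 under the other alternatives run, the replicate block included, where the replicate numbers share only a number (same-numbered arrays correlated between -0.06 and 0.07 in their deviations). Hyal1 has 1 feature and its groups lay apart, so neither the feature rules nor leaving out arrays could change its negative sign. Over the 19 alternatives its difference ran from -1.08 to -0.77, with limma adjusted p from 0.037 to 0.223. Vcan was -0.14 with the mean over features, -0.19 with the most variable feature, -0.029 without wild-type array 1 and array 3 labelled Fgf10+/- together, and -0.19 to 0.34 with 1 array left out. Cd44 was -0.12 and -0.089 under the first 2 of these, and Tnfaip6 0.37 under the second. With 1 array left out Has2 ranged from -0.38 to 0.015 and Hyal2 from -0.090 to 0.026. The 2 called pathway genes became 3 at an adjusted p below 0.1. They became 1 without the filter, with the mean over features, under the replicate block and without both arrays named above, 0 with the most variable feature and without the variance trend, and 0 to 2 with 1 array left out. Over the whole array 137 genes were called, 278 at an adjusted p below 0.1, 1 without the variance trend, 116 under the replicate block and 34 to 173 with 1 array left out, lowest without wild-type array 2. Ezr lost its call in 14 and Adamts4 in 4 of 19 alternatives. The causes were not tested. Whether dim features such as Has1 and Has3 lay above background is unknown.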
